A study of Mus musculus with 24 samples.

Results

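These data compare quadriceps femoris muscle of Hsf1-/- and wild type mice, none of which had been given heat shock or an HSP90 inhibitor. The comparison uses 8 of the 24 RNA-seq libraries of the series, 1 mouse each, namely 4 Hsf1-/- and 4 wild type. They were taken by their labels from the control arms of a heat shock experiment and of an experiment with an HSP90 inhibitor. In the control heat shock arm, 2 Hsf1-/- mice aged 10 weeks and 2 wild type mice aged 12 weeks were anaesthetised with isoflurane and kept on a pad at 36.9 °C for 21 minutes. In the vehicle arm, 2 Hsf1-/- mice aged 8 weeks and 2 wild type mice aged 12 weeks were given saline by oral gavage. All muscles were taken 4 hours later, and the labels give the strain background of every mouse as CBA x C57BL/6 F1. The Hsf1-/- mice were the younger ones in both arms, so genotype and age cannot be told apart. The study describes wild type mice as littermates of its R6/2 mice, a Huntington's disease model, and the sources used here do not say whether Hsf1-/- mice had littermates among the wild type mice.

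HSF1 is the transcription factor that drives the heat shock response. Under stress it forms trimers, binds heat shock elements (inverted repeats of the unit nGAAn) and switches on genes for chaperones, the proteins that help other proteins to fold. In resting cells it is held largely inactive in complexes with chaperones such as HSP90 and HSP70, and how much of the chaperone supply of a resting tissue depends on it is the question of this comparison. Skeletal muscle has a heavy load of large contractile proteins and makes large amounts of small heat shock proteins.

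The 8 libraries held between 23883708 and 29939582 counts, and 13284 autosomal genes passed a filter on low counts. Genes that mark muscle fibres summed to between 246253 and 288678 CPM (counts scaled by library size and TMM factors) in the Hsf1-/- libraries and to between 220268 and 255300 CPM in the wild type ones. The 4 Y-linked genes Ddx3y, Eif2s3y, Kdm5d and Uty summed to 0 counts in both wild type mice of the control heat shock arm, which allows up to 3 counts a library, and to between 3916 and 5365 counts in the other 6 mice. Sex and genotype therefore cannot be told apart within the control heat shock arm, while all 4 vehicle mice had Y-linked counts. For that reason genes on X and Y were left out. The vehicle values are given beside the values of both arms together for the called genes other than Rpl30 and Rpl26. For other genes and lists they are given only in part. In bulk muscle, fewer cells of a type and less RNA per cell cannot be told apart.

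With the experiment as a block, 14 genes were lower and 2 were higher in Hsf1-/- muscle (edgeR's quasi-likelihood test, Benjamini-Hochberg adjusted p under 0.05). These are 0.105% and 0.0151% of the 13284 genes tested. Among the lower genes were Hsf1 itself and the chaperone genes Hsph1, Cryab, Hsp90ab1, Ahsa1 and Ahsa2. The other lower genes were Nos1, Asb15, Lynx1, Ttc38, Myoc, Bckdha, Rpl30 and Rpl26, and the higher ones were Dysf and Dpysl5. All 16 had the same sign in both arms, and in 15 of them the 4 Hsf1-/- mice lay wholly on 1 side of the 4 wild type mice. Both traits were favoured by the choice, since the genes were called from these same mice. Over all genes tested, 4.3% had all 4 Hsf1-/- mice below and 3.23% had them above all 4 wild type mice. At an unadjusted p under 0.05, 6.42% of the genes were lower and 6.29% were higher. DESeq2 on the same 8 libraries called 1.32% lower and 1.02% higher, and the edgeR fit that took the spread from all 24 libraries called 0.685% lower and 0.233% higher. Of the 16 genes, 5 (Hsf1, Rpl30, Rpl26, Dpysl5 and Dysf) passed the threshold whichever of the 8 mice was left out. Without the 2 wild type mice that had 0 Y-linked counts, and so without the experiment block, 17 genes were called, among them 6 of the 16 (Hsf1, Hsph1, Cryab, Lynx1, Rpl30 and Rpl26). Ahsa2, Asb15, Dysf and Myoc overlap a gene on the opposite strand, and whether counting used strand is not given in the sources used here.

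**Figure D1:**
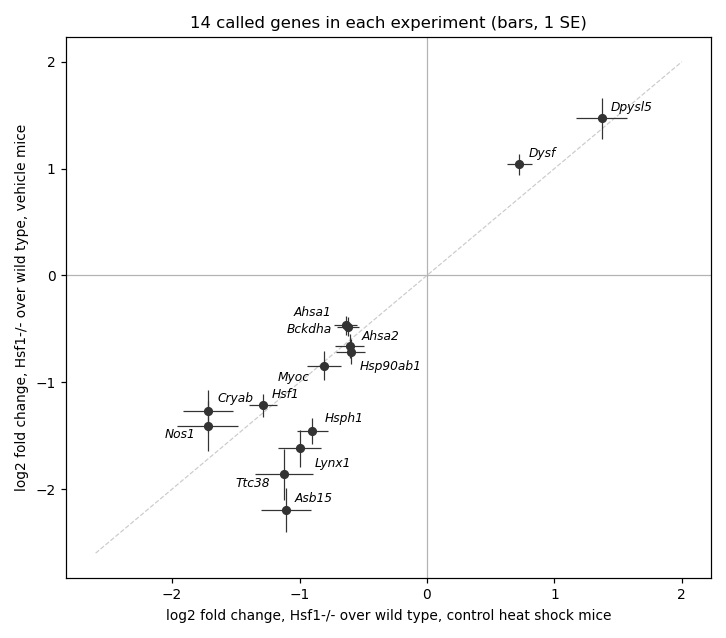
Log2 fold change of Hsf1-/- over wild type in the control heat shock mice (horizontal) and in the vehicle mice (vertical), each 2 against 2 mice, for the called genes other than Rpl30 and Rpl26, with bars of 1 SE and a dashed line where both are equal. All 14 genes lie in the lower left or upper right part of the plot, with Dpysl5 at 1.37 and 1.47 and Cryab at -1.72 and -1.27. The genes were called from these same mice, which favours such places.

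Hsf1, at chr15:76307865-76331402 on the plus strand (mm9), was the first check of the labels. Its level was 24.2 and 20.7 CPM in the Hsf1-/- control heat shock mice and 25.5 and 24.2 CPM in the Hsf1-/- vehicle mice. Wild type mice had 53.3 and 56.2 CPM in the control heat shock arm and 57.7 and 58.0 CPM in the vehicle arm. The groups did not overlap, and the means were 23.6 ± 2.09 and 56.3 ± 2.14 CPM (SD, n = 4 each). The log2 fold change was -1.25 (SE 0.09, adjusted p = 0.000434 by edgeR), and it was -1.22 within the vehicle mice (edgeR adjusted p = 0.00589). Reads assigned to Hsf1 thus remained in Hsf1-/- muscle, and gene counts do not show which exons they came from.

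The other members of the heat shock factor family were not called. Hsf2, whose protein can join HSF1 in trimers, was at 15.3 ± 2.07 CPM in Hsf1-/- and 17.8 ± 1.64 CPM in wild type muscle (log2 fold change -0.22, SE 0.13, edgeR adjusted p = 0.495). Hsf4, best known for its part in the lens, was at 8.85 ± 0.71 and 10.4 ± 0.60 CPM (-0.23, SE 0.11, adjusted p = 0.435), with no overlap between the groups. Hsbp1, which encodes a small protein that binds HSF1 trimers, was at 114.5 ± 9.21 and 124.0 ± 10.3 CPM (-0.11, SE 0.10, adjusted p = 0.657). Hsf5 stayed at or under 0.14 CPM in every mouse, and no fold is given for it.

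In the HSP90 machine 3 transcripts were lower. HSP90 is an abundant chaperone that finishes the folding of kinases and receptors, and co-chaperones load its clients and set the pace of its ATPase. Hsp90ab1, the constitutive HSP90 gene, had 952 and 791 CPM in the Hsf1-/- control heat shock mice and 1038 and 964 CPM in the Hsf1-/- vehicle mice, against 1260 and 1383 CPM and 1744 and 1540 CPM in wild type mice of the same arms. Every Hsf1-/- value lay below every wild type value, with a log2 fold change of -0.66 (SE 0.09, edgeR adjusted p = 0.0418). Ahsa1, which encodes an activator of the HSP90 ATPase, was at 78.7 ± 3.98 CPM in Hsf1-/- and 115.5 ± 4.89 CPM in wild type muscle (-0.55, SE 0.08, adjusted p = 0.0418). Its relative Ahsa2 was at 28.8 ± 1.51 and 44.8 ± 3.17 CPM (-0.64, SE 0.09, adjusted p = 0.0416). Within the vehicle mice alone the log2 fold changes were -0.71 for Hsp90ab1 (adjusted p = 0.0587), -0.47 for Ahsa1 (adjusted p = 0.0835) and -0.66 for Ahsa2 (adjusted p = 0.0587). Leaving out single mice took the adjusted p to between 0.0567 and 0.151 for Hsp90ab1, between 0.0488 and 0.176 for Ahsa1 and between 0.0512 and 0.151 for Ahsa2, so that Hsp90ab1 and Ahsa2 were called in 0 of these 8 edgeR fits and Ahsa1 in 1, the one without the second Hsf1-/- vehicle mouse.

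Other members were not called by edgeR on the 8 libraries, although their groups did not overlap. All but Hsp90aa1 were singled out after their values were seen. DESeq2 called Stip1, Fkbp4, St13, Unc45b and Hsp90aa1 lower, and the fit of all 24 libraries called Stip1, Fkbp4 and St13. Stip1, the adaptor that links HSP70 to HSP90, was at 77.0 ± 3.71 CPM in Hsf1-/- and 115.8 ± 12.4 CPM in wild type mice (log2 fold change -0.58, edgeR adjusted p = 0.0876). It was called in each arm alone, at -0.41 (adjusted p = 0.0456) in the control heat shock mice and -0.75 (adjusted p = 0.0207) in the vehicle mice. Fkbp4, an immunophilin of steroid receptor complexes, was at 137.3 ± 3.90 and 194.2 ± 12.9 CPM (-0.50, adjusted p = 0.076). St13, which steadies HSP70 bound to ADP and lies 4.89 Mb from Hsf1, was at 55.6 ± 3.04 and 77.0 ± 2.47 CPM (-0.47, adjusted p = 0.103). Unc45b, a myosin chaperone of muscle, was at 400.8 ± 49.5 and 514.9 ± 18.2 CPM (-0.37, adjusted p = 0.157). Hsp90aa1, the stress-inducible HSP90 gene, was at 6.75 ± 0.94 and 10.5 ± 1.35 CPM (-0.65, adjusted p = 0.166), and its transcript had 2 near copies elsewhere in the genome. Of the 23 tested genes in the list of HSP90 and its co-chaperones, 3 were called lower and 0 higher, and 10 were lower and 1 higher at an unadjusted p under 0.05. Over all genes 0.105% were called lower and 0.0151% higher, and 6.42% were lower and 6.29% higher at that unadjusted p. DESeq2 called 8 of the 23 lower and the fit of all 24 libraries 6, against 1.32% and 0.685% of all genes. The median over the list was -0.04, against 0.004 over all genes tested, since members such as Ppid (-0.01), Chordc1 (0.07) and Sugt1 (0.11) stood near 0.

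**Figure D2:**
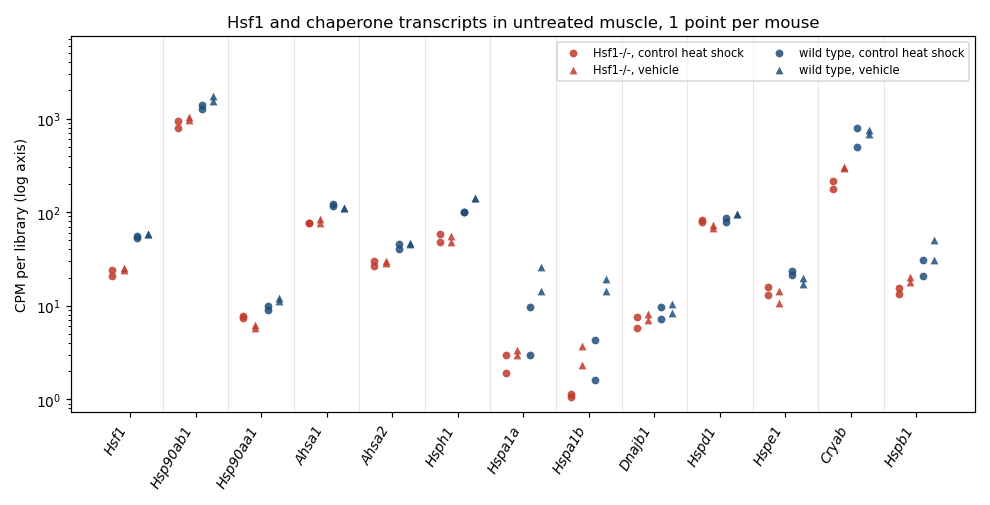
CPM of Hsf1 and of 12 chaperone and co-chaperone genes in each of the 8 untreated mice (1 point per mouse, logarithmic axis, red for Hsf1-/- and blue for wild type, circles for control heat shock and triangles for vehicle). Hsph1, Cryab and both Ahsa genes show 2 separate groups, while the wild type points of Hspa1a run from 2.96 to 25.6 CPM and reach into the range of Hsf1-/- mice.

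In the HSP70 family, Hsph1 was the called gene. It encodes HSP110, which exchanges the nucleotide on HSP70 and is itself a classic heat shock gene. Its levels were 48.2 and 58.5 CPM in the Hsf1-/- control heat shock mice and 47.4 and 55.4 CPM in the Hsf1-/- vehicle mice. Wild type levels were 100 and 99.1 CPM in the control heat shock arm and 141.1 and 141.0 CPM in the vehicle arm. The groups were well apart, at a log2 fold change of -1.18 (SE 0.13, edgeR adjusted p = 0.0105), and the vehicle mice alone gave -1.46 (adjusted p = 0.00549). Without the first Hsf1-/- control heat shock mouse the value was -1.16 and the adjusted p was 0.0567.

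Hspa1a and Hspa1b, the stress-inducible HSP70 genes, had their largest differences in the vehicle arm. Hspa1a was at 2.99, 1.90, 3.35 and 2.97 CPM in the 4 Hsf1-/- mice, at 2.96 and 9.76 CPM in the wild type control heat shock mice and at 25.6 and 14.4 CPM in the wild type vehicle mice. Hspa1b was at 1.14, 1.06, 3.68 and 2.34 CPM in Hsf1-/- mice, at 1.62 and 4.30 CPM in wild type control heat shock mice and at 19.1 and 14.2 CPM in wild type vehicle mice. For both genes the first wild type control heat shock mouse lay within the range of the Hsf1-/- mice, and the wild type mice were spread widely. The log2 fold changes were -2.04 (SE 0.42, edgeR adjusted p = 0.136) for Hspa1a and -2.02 (SE 0.35, adjusted p = 0.106) for Hspa1b, so neither was called here, although DESeq2 called both (adjusted p = 3.73e-05 and 2.48e-06). The transcript of each gene also matched 1 other place in the genome nearly base for base, so reads of the pair may have been split between them.

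Among the other members, Hspa4l, a second HSP110, was at 6.16 ± 0.81 CPM in Hsf1-/- and 12.4 ± 1.79 CPM in wild type mice (log2 fold change -1.01, edgeR adjusted p = 0.0647). It too was called in each arm alone, at -0.73 (adjusted p = 0.0484) and -1.29 (adjusted p = 0.0242). DESeq2 and the fit of all 24 libraries called it as well. Its relative Hspa4 had nearly equal means, at 176.6 ± 14.4 and 177.2 ± 21.9 CPM (log2 fold change 0.0004). Hspa8, the constitutive HSP70, was at 21.2, 19.3 and 19.7 CPM in 3 Hsf1-/- mice but at 132.6 CPM in the first Hsf1-/- vehicle mouse, and its transcript had 3 near copies elsewhere in the genome, so its value (-0.56, adjusted p = 0.637) is uncertain. Over the 11 tested genes of the HSP70 and HSP110 list, 1 was called lower and 5 were lower at an unadjusted p under 0.05, against 0.105% and 6.42% of all genes. DESeq2 called 5 of the 11 lower and the fit of all 24 libraries 4, where all genes had 1.32% and 0.685%. The median of the list was -0.56. That median is the value of Hspa8 itself, it was -0.35 in the control heat shock mice and -0.43 in the vehicle mice, and it became -0.29 without the second Hsf1-/- vehicle mouse.

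Heat shock elements in the promoter regions were looked for as 2 units facing each other (GAANNTTC or TTCNNGAA) and as 3 units in a row, each read on both strands. The windows were the 300 bases around annotated starts in RefSeq (GRCm38.p6), and they were found for 10435 of the 13284 genes tested. The 2-unit motif was in 14.05% of these genes and the 3-unit motif in 0.613%, and every 3-unit match also contains 2-unit matches. Of the 9 lower genes with a window, 4 held 2 units (Hsph1, Myoc, Bckdha and Asb15) and 2 held 3 units (Hsph1 and Myoc). Both higher genes had windows, and 0 of them held the motif. Of the 83 chaperone list genes with a window, 26.5% held 2 units, and of the 26 of them that were lower at an unadjusted p under 0.05, 13 did. No window was matched for the other 5 lower genes, Hsf1, Cryab, Hsp90ab1, Lynx1 and Rpl30.

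The 250 bases before the start are shown for Hsph1 and Hspa1a, which hold the motif, and for Ahsa1, in which these letters were not found. Capitals mark the 2-unit motif.
Hsph1, chr5:149636337-149636586, minus strand: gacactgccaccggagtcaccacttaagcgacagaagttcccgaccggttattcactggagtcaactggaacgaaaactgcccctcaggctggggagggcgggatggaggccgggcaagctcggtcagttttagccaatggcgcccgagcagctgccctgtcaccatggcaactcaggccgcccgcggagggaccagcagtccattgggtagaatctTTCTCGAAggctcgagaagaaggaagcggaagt
Hspa1a, chr17:34972157-34972406, minus strand: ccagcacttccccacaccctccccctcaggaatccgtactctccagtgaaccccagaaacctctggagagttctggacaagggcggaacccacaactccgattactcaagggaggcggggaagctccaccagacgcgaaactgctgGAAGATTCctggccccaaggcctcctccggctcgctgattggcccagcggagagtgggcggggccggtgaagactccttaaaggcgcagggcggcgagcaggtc
Ahsa1, chr12:87266478-87266727, plus strand: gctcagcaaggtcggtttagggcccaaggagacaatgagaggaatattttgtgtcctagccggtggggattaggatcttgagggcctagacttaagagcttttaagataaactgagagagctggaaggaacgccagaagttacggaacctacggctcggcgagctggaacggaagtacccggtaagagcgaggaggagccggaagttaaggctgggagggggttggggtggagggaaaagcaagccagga

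The 3-unit matches of the lower genes lay just after the start. They are shown because only 0.613% of genes held such a run.
Hsph1, chr5:149636288-149636300, minus strand: TTCTGGAAAGTTC
Myoc, chr1:162639187-162639199, plus strand: GAACTTTCCAGAA

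Among the small heat shock proteins, which hold unfolding proteins in solution, Cryab was the called gene. Cryab encodes αB-crystallin, which protects desmin and actin filaments in muscle. Its levels were 215 and 176 CPM in the Hsf1-/- control heat shock mice and 296 and 303 CPM in the Hsf1-/- vehicle mice, against 499 and 786 CPM and 754 and 691 CPM in wild type mice of those arms. The groups were far apart, with a log2 fold change of -1.49 (SE 0.16, edgeR adjusted p = 0.0105). It was -1.72 (adjusted p = 0.014) in the control heat shock mice and -1.27 (adjusted p = 0.056) in the vehicle mice, and without the first Hsf1-/- control heat shock mouse it was -1.49 with an adjusted p of 0.0567.

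Hspb1, which encodes HSP25, was at 16.7 ± 3.15 CPM in Hsf1-/- and 33.0 ± 12.1 CPM in wild type muscle, with no overlap (log2 fold change -0.96, SE 0.18, edgeR adjusted p = 0.119), and its transcript had 1 near copy elsewhere. Hspb6, another abundant muscle member, was at 859.3 ± 51.0 and 1313 ± 171 CPM (-0.61, adjusted p = 0.107). Bag3, which pairs with Hspb8 to send damaged filament proteins to autophagy, was at 177.7 ± 8.48 and 251.6 ± 51.9 CPM (-0.49, adjusted p = 0.206), and Hspb8 itself at 428.3 ± 80.4 and 569.1 ± 131 CPM (-0.41, adjusted p = 0.22). Of the 12 tested genes of the small HSP and BAG list, 1 was called lower, and 6 were lower and 0 higher at an unadjusted p under 0.05, with a median of -0.42. All genes had 0.105% called lower, and 6.42% lower and 6.29% higher at that unadjusted p. DESeq2 called 5 of the 12 lower and the fit of all 24 libraries 2, against 1.32% and 0.685% of all genes. Hspb6 was called by both, and Hspb1 and Bag3 by DESeq2 but not by that fit.

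The remaining chaperone classes held no gene called by edgeR with both arms together. Beside the counts below, 6.42% of all genes were lower and 6.29% were higher at an unadjusted p under 0.05. Of the 12 tested DNAJ A and B genes, which bring clients to HSP70, 0 were called by edgeR and 2 were lower at an unadjusted p under 0.05 (median -0.08), and DESeq2 called 0. Dnajb1, the main stress-inducible member, was at 7.16 ± 0.96 and 8.97 ± 1.46 CPM (log2 fold change -0.32, SE 0.16, adjusted p = 0.425). Of the 14 subunits of the cytosolic chaperonin CCT and prefoldin, 1 was lower at an unadjusted p under 0.05 (median -0.14). Of the 16 mitochondrial chaperones and proteases, 5 were lower and 1 was higher (median -0.08). Hspe1 and Hspd1, the mitochondrial chaperonin pair, were at -0.60 (SE 0.12, adjusted p = 0.136) and -0.24 (SE 0.10, adjusted p = 0.358). These 2 genes overlap on opposite strands, and each transcript had 1 near copy elsewhere. Of the 18 chaperones of the endoplasmic reticulum, 3 were lower and 1 was higher (median -0.06). In these last 3 lists edgeR called 0 genes, and DESeq2 called 1, 2 and 0 lower, where all genes had 1.32%. The fit of all 24 libraries called 1 gene lower in each of the DNAJ, CCT and mitochondrial lists. It called 0 in the endoplasmic reticulum list, and 0.685% of all genes.

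Over the 101 genes tested in the 7 chaperone lists, 5 were called lower and 0 higher, against the 0.105% and 0.0151% of all genes given above. At an unadjusted p under 0.05, 32 were lower and 3 were higher, where all genes had 6.42% and 6.29%. The 4 Hsf1-/- mice lay wholly below the wild type mice for 24 of them and wholly above for 3, where all genes had 4.3% and 3.23%. DESeq2 called 21 of the 101 lower and 0 higher, and the fit of all 24 libraries called 15 lower and 0 higher. Over all genes DESeq2 called 1.32% lower and 1.02% higher, and the fit of all 24 libraries 0.685% and 0.233%. The median over the 101 genes was -0.13, and it stayed between -0.15 and -0.10 when single mice were left out. A list of 10 HSP genes with qPCR primers in the study had 10 negative fold changes, with a median of -0.81, and 9 had an unadjusted p under 0.05. Of these 10, edgeR called 3 lower, DESeq2 8 and the fit of all 24 libraries 6. Tcp1, a CCT subunit that also had primers and was left off that list, was at 213.2 ± 9.94 CPM in Hsf1-/- and 208.8 ± 5.77 CPM in wild type mice (0.03, edgeR adjusted p = 0.896). The study itself reports, by qPCR on more mice, that basal HSP gene levels did not differ between wild type and Hsf1 knockout muscle. Its qPCR levels were scaled to housekeeping genes, unlike the CPM used here. The 5 tested genes of the housekeeping list had a median of -0.08 here. What lay behind the difference from the study was not tested.

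The 8 treated mice of the same genotypes, other animals given heat shock or the HSP90 inhibitor, were fitted in the same way as a second look at the 16 genes. There edgeR called 0.949% of all genes lower and 0.226% higher in Hsf1-/- muscle. All 16 genes kept their sign and 9 of them were called, namely Hsf1, Hsph1, Cryab, Hsp90ab1, Ahsa1, Ahsa2, Lynx1, Ttc38 and Dysf. Hsf1 stood at -1.21 (adjusted p = 0.000406), close to its value without treatment. The chaperone differences were wider there than in untreated mice, at -3.19 (adjusted p = 3.23e-05) for Hsph1, -2.44 (adjusted p = 0.00035) for Cryab, -1.59 (adjusted p = 0.00102) for Hsp90ab1 and -8.69 (adjusted p = 4.99e-07) for Hspa1a. In Hsf1-/- mice Hsph1 stayed between 39.8 and 55.3 CPM after treatment, a range that overlaps its untreated one, while treated wild type mice had between 328 and 695 CPM. Hsph1, Cryab, Hsp90ab1, Ahsa1 and Ahsa2 were all higher in treated than in untreated wild type mice. Their lower calls here thus include that rise and are no separate look at the untreated difference. The treated mice share the limits of the untreated ones, since both wild type heat shock mice also had 0 Y-linked counts.

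The 2 higher genes both passed in each arm. Dysf encodes dysferlin, which reseals torn muscle membranes. It was at 142.7 and 156.4 CPM in the Hsf1-/- control heat shock mice and 211.9 and 197.9 CPM in the Hsf1-/- vehicle mice, against 89.0 and 91.9 CPM and 106.2 and 93.2 CPM in wild type mice. The lowest Hsf1-/- value thus lay above the highest wild type value, at a log2 fold change of 0.88 (SE 0.10, edgeR adjusted p = 0.0105) and at 1.04 (adjusted p = 0.00738) within the vehicle mice. Dpysl5, a member of the collapsin response mediator family known from neurons, was at 6.291, 5.797, 7.864 and 6.92 CPM in Hsf1-/- mice and at 2.44, 2.23, 2.78 and 2.55 CPM in wild type mice. Its log2 fold change was 1.42 (SE 0.14, adjusted p = 0.00848), with 1.37 and 1.47 in the 2 arms.

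Among the lower genes outside the chaperone lists, Nos1 encodes the neuronal nitric oxide synthase, the main nitric oxide source of the muscle fibre membrane. It was at 16.7 and 24.4 CPM in the Hsf1-/- control heat shock mice and 27.7 and 35.1 CPM in the Hsf1-/- vehicle mice, against 76.1 and 59.1 CPM and 96.9 and 70.2 CPM in wild type mice. All Hsf1-/- values were below the wild type ones (log2 fold change -1.56, SE 0.17, edgeR adjusted p = 0.0105), with -1.41 in the vehicle mice (adjusted p = 0.0587). Without the first Hsf1-/- vehicle mouse it was -1.54 with an adjusted p of 0.0535. Asb15, a muscle gene of the ankyrin repeat and SOCS box family, was at 34.3, 43.7, 21.9 and 14.1 CPM in Hsf1-/- mice and between 77.2 and 87.4 CPM in wild type mice (-1.64, SE 0.23, adjusted p = 0.0418), and it was called in the vehicle mice (-2.19, adjusted p = 0.00709). Its adjusted p ran from 0.0212 to 0.141 when single mice were left out, and 2 of those 8 fits called it, the ones without the second Hsf1-/- mouse of either arm.

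Myoc encodes myocilin, a secreted protein, and Bckdha the E1 alpha subunit of the complex that breaks down branched-chain keto acids. Both were named after their values were seen. Myoc was at 33.6, 40.9, 20.1 and 20.8 CPM in Hsf1-/- mice and at 64.3, 66.0, 33.5 and 39.9 CPM in wild type mice, so that the groups overlapped across arms but not within either arm (log2 fold change -0.83, SE 0.10, edgeR adjusted p = 0.0167). Bckdha was at 159.6 ± 6.13 and 234.1 ± 18.8 CPM (-0.55, SE 0.08, adjusted p = 0.0418). Within the vehicle mice neither was called, at -0.84 for Myoc (edgeR adjusted p = 0.056) and -0.48 for Bckdha (edgeR adjusted p = 0.0823). With single mice left out Myoc was called in 3 of 8 fits (adjusted p up to 0.0924), and Bckdha in 0 (0.0576 to 0.176). The 3 fits that called Myoc were those without the second Hsf1-/- mouse of either arm or the first wild type vehicle mouse. The fit of all 24 libraries did not call Myoc (adjusted p = 0.128), and without the 2 wild type mice with 0 Y-linked counts its value was -0.35 (adjusted p = 0.735).

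The 2 largest falls among the called genes were in ribosomal protein genes and are uncertain. Rpl30 had 1, 3, 0 and 2 counts in the Hsf1-/- mice and 923, 1148, 727 and 802 counts in the wild type mice. Rpl26 had 1, 4, 3 and 6 counts against 305, 678, 214 and 258. Rpl30 lies on the chromosome of Hsf1, 41.9 Mb away. The split was complete in the untreated mice, but Rpl30 stood at 14.4 CPM in 1 treated Hsf1-/- mouse, and Rpl26 at 7.12 CPM in another and at 0.22 CPM in 1 treated wild type mouse. Spliced Rpl30 and Rpl26 transcripts matched 7 and 2 other places in the genome nearly base for base. Rps2, another gene of this class with 13 such places, had 2, 1661, 4 and 1229 counts in the Hsf1-/- mice and 1638, 3818, 1 and 2 in the wild type mice, a switch that followed neither genotype nor arm. No fold is given for these genes, and how reads were assigned among their copies was not tested.

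Lynx1 and Ttc38 lie near Hsf1 on chromosome 15. Lynx1, whose protein tunes nicotinic acetylcholine receptors, is at chr15:74578286-74583409 (mm9), 1.74 Mb from Hsf1. It was at 133.8, 119.9, 131.1 and 98.3 CPM in Hsf1-/- mice and at 227.5, 279.7, 388.5 and 316.2 CPM in wild type mice (log2 fold change -1.31, SE 0.16, edgeR adjusted p = 0.0193), and it was called in the vehicle mice too (-1.62, adjusted p = 0.0113). Ttc38, at chr15:85662734-85689252 and 9.36 Mb away, was at 6.54, 11.3, 5.23 and 5.75 CPM and at 18.96, 19.85, 19.21 and 20.79 CPM (-1.49, SE 0.21, adjusted p = 0.0418). Within the vehicle mice Ttc38 was at -1.86 (edgeR adjusted p = 0.0215). Both were also lower in the treated mice, at -1.14 (adjusted p = 0.00305) and -1.44 (adjusted p = 0.0143). Neither gene's groups overlapped. With single mice left out Lynx1 was called in 5 of 8 fits (not without the second wild type mouse of either arm or the first Hsf1-/- vehicle mouse, at an adjusted p of up to 0.107), and Ttc38 in 1, the one without the second Hsf1-/- control heat shock mouse (up to 0.133 in the others). Jrk, 1.78 Mb from Hsf1 and picked after its values were seen, went the other way at 8.99 ± 0.44 against 4.75 ± 0.77 CPM (0.92, adjusted p = 0.0876), and in the treated mice at 0.86 (adjusted p = 0.0223).

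The share of genes with a low p was higher on chromosome 15 than on the other autosomes. Within 5 Mb of it, without Hsf1 itself, 32 of 154 genes (20.8%) had an unadjusted p under 0.05, within 10 Mb 46 of 229 (20.1%) and within 20 Mb 53 of 305 (17.4%). Beyond 20 Mb on the same chromosome the share was 18.1% of 238 genes, and on the other autosomes it was 12.5% of 12706. The groups did not overlap for 11.7% of the genes within 5 Mb and for 7.45% of those on other autosomes. The median fold change within 5 Mb was -0.06. Neighbouring genes are not independent, and the difference between these shares was not tested.

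**Figure D3:**
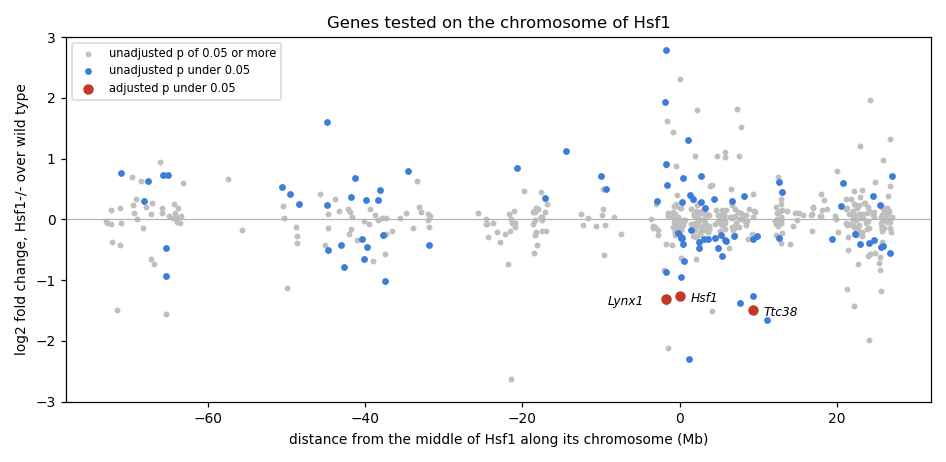
Log2 fold change of Hsf1-/- over wild type against distance from Hsf1 for 539 tested genes of its chromosome, with grey points at an unadjusted p of 0.05 or more, blue points under it and red points called after adjustment. Rpl30, 4 genes beyond 3 on the vertical axis and 6 genes with no position are not drawn, and Hsf1, Lynx1 and Ttc38 are the called genes shown.

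The 2 arms did not give the same picture outside the genes above. In the control heat shock mice 1.69% of genes were lower and 2.83% were higher in Hsf1-/- muscle (224 and 376 genes), and with library size alone as the scaling the split was 364 lower and 242 higher. That count fell to between 8 and 38 when any of the 4 control heat shock mice was left out. In the vehicle mice 0.226% were lower and 0.0376% were higher (30 and 5 genes). Of the 600 genes called in the control heat shock mice, 269 had the same sign in the vehicle mice, and over all genes 49.9% did. For 257 genes, or 1.93%, the genotype difference itself differed between the arms. That count was 0 in the fit of all 24 libraries, in which 1842 genes had an unadjusted p under 0.05, and it lay between 10 and 135 when single mice were left out.

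The genes of slow, oxidative fibres stood out in that contrast. Tnnt1, the slow troponin T, was at 41.4 and 40.9 CPM in the Hsf1-/- control heat shock mice and at 5.06 and 4.10 CPM in the Hsf1-/- vehicle mice. Wild type levels lay between those, at 15.5 and 17.1 CPM and at 32.5 and 23.1 CPM. The log2 fold change was therefore 1.34 (edgeR adjusted p = 0.0145) in one arm and -2.602 (adjusted p = 0.00248) in the other, with an adjusted p of 0.00223 for the difference. Tnni1, the slow troponin I, went from 0.85 to -2.93 and Tpm3, the slow tropomyosin, from 1.19 to -1.49, with adjusted p of 0.00223 and 0.00393 for the difference. Myh7, the slow myosin heavy chain, was at 127.1 and 218.2 CPM in the first Hsf1-/- pair and at 9.29 and 3.11 CPM in the second. Of the 14 genes in the slow fibre list, 5 were called higher in the control heat shock mice (median 0.77), 7 were called lower in the vehicle mice (median -1.38), and 8 were called for the difference. Over all genes these shares were 2.83%, 0.226% and 1.93%. With both arms together 0 were called by edgeR or DESeq2 and 1 had an unadjusted p under 0.05. The summed level of the list was between 2837 and 3411 CPM in the Hsf1-/- control heat shock mice, between 1269 and 1830 CPM in the Hsf1-/- vehicle mice, and between 2311 and 4105 CPM in wild type mice. Mice of 1 group could lie as far apart in these genes. Among treated mice, Tnnt1 was at 35.5 and 4.02 CPM and Myh7 at 148.7 and 4.91 CPM in the 2 wild type mice given the HSP90 inhibitor, and Tnnt1 was at 1.84 and 17.7 CPM in the 2 Hsf1-/- ones. Age (10 against 8 weeks), arm and the Y-linked counts of the wild type mice all moved with this contrast, and their part in it was not tested.

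**Figure D4:**
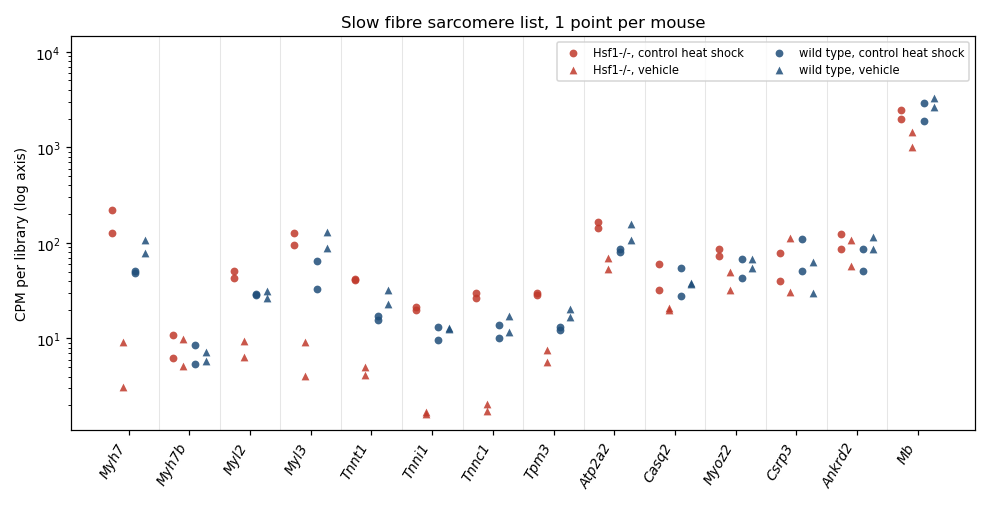
CPM of the 14 slow fibre sarcomere genes in each of the 8 untreated mice (1 point per mouse, logarithmic axis, red for Hsf1-/- and blue for wild type, circles for control heat shock and triangles for vehicle). For Tnnt1 the Hsf1-/- circles at 41.4 and 40.9 CPM lie above all wild type points, and the Hsf1-/- triangles at 5.06 and 4.10 CPM lie below them.

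Genes of fatty acid use also differed between the arms. For Pdk4 and Ucp3 the wild type control heat shock mice were the ones that stood apart. Pdk4, the kinase that shuts glucose carbon out of the citric acid cycle, was at 243.6 and 332.5 CPM in the wild type control heat shock mice and between 1365 and 2212 CPM in the other 6 mice. Ucp3, a mitochondrial carrier raised in fasting, was at 109.5 and 119.7 CPM in those 2 mice and between 332 and 546 CPM in the others. The control heat shock contrast was thus 2.91 for Pdk4 (edgeR adjusted p = 0.000887) and 2.15 for Ucp3 (adjusted p = 0.00339), and the vehicle contrast -0.22 and -0.28. Of the 27 genes of the fatty acid list, 13 were called higher in the control heat shock mice (median 0.51) and 1 was called lower in the vehicle mice (median -0.44), with 12 called for the difference. All genes had 2.83%, 0.226% and 1.93% in these 3 counts. In the list 25 genes had a positive fold change in the control heat shock mice, and 25 a negative one in the vehicle mice. Its summed level was 4555 to 4883 CPM in wild type control heat shock mice and 8133 to 8487 CPM in wild type vehicle mice. In Hsf1-/- mice it was 8271 to 8659 CPM in the control heat shock arm and 6215 to 6264 CPM in the vehicle arm. With both arms together edgeR called 0 and DESeq2 called 1 higher, and 4 were higher and 1 lower at an unadjusted p under 0.05, where all genes had 6.29% and 6.42%. Among the untreated mice the pair low in Pdk4 and Ucp3 was also the pair with 0 Y-linked counts. The 2 wild type mice given heat shock had 0 Y-linked counts too. They stood at 2927 and 1669 CPM for Pdk4 and at 1094 and 967 CPM for Ucp3. The part of sex in this result was not tested.

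Nuclear genes of the respiratory chain mostly had small negative fold changes. Of 70 tested, 64 had a negative fold change, where 6559 of all 13284 genes did. At an unadjusted p under 0.05, 36 were lower and 0 higher, against 6.42% and 6.29% of all genes, and for 31 the Hsf1-/- mice lay wholly below the wild type mice, against 4.3% of all genes. Their summed level was between 23729 and 25751 CPM in Hsf1-/- mice and between 26904 and 29223 CPM in wild type mice, with no overlap. The sums of the 5 tested housekeeping genes did not overlap either, at 5206 to 5719 CPM and 5726 to 6110 CPM. The median of the respiratory chain genes was -0.22 with both arms together, -0.25 in the control heat shock mice and -0.15 in the vehicle mice. With both arms together edgeR called 0 of the respiratory chain genes, DESeq2 called 5 lower and the fit of all 24 libraries 1. Over all genes DESeq2 called 1.32% lower and that fit 0.685%. In the control heat shock mice alone, where sex and genotype cannot be told apart, edgeR called 16 lower, and in the vehicle mice it called 0, with 67 of 70 negative there and 53 in the control heat shock mice. Over all genes it called 1.69% lower in the control heat shock mice and 0.226% in the vehicle mice. With the Y-linked level as a covariate the median was -0.15. Uqcrq of complex III (-0.42, adjusted p = 0.166) and Cox7a1, the muscle form of a complex IV subunit (-0.42, adjusted p = 0.179), had the smallest p.

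Fast fibre genes mostly had positive fold changes. Of 18 tested, 15 had a positive fold change and 7 were higher and 0 lower at an unadjusted p under 0.05, with 0 called by edgeR and 2 called higher by DESeq2 (median 0.17). Over all genes 6725 of 13284 were positive, 6.29% were higher and 6.42% lower at that p, and DESeq2 called 1.02% higher. In the control heat shock mice 11 were positive and 2 were called higher, and in the vehicle mice 16 were positive and 1 was called lower. All genes had 2.83% called higher in the first arm and 0.226% called lower in the second. Myh1, the myosin heavy chain of fast 2X fibres, was at 0.50 (edgeR adjusted p = 0.0471) in the first arm and -0.88 (adjusted p = 0.0226) in the second, and it was called for the difference (adjusted p = 0.0152). Myh4, the myosin heavy chain of the fastest fibres, was at 77750 ± 5856 CPM in Hsf1-/- and 63043 ± 10585 CPM in wild type muscle (log2 fold change 0.32, SE 0.09, adjusted p = 0.221). With the 20 most abundant genes left out of the scaling, the called genes again numbered 14 lower and 2 higher.

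With both arms together, markers of vessel cells mostly had positive fold changes, and edgeR called 0 of them. Over all genes 6725 of 13284 were positive. At an unadjusted p under 0.05, 6.29% of all genes were higher. All 8 smooth muscle and pericyte markers had a positive fold change and 4 had an unadjusted p under 0.05, with a median of 0.39. Their summed level was between 378.5 and 503.4 CPM in Hsf1-/- mice and between 274.0 and 340.5 CPM in wild type mice. Of the 10 endothelial markers, 9 had a positive fold change and 4 an unadjusted p under 0.05 (median 0.24), with sums between 562.0 and 693.5 CPM and between 503.2 and 559.1 CPM. DESeq2 called 0 of the first list and 1 of the second higher, against 1.02% of all genes. In the control heat shock mice 5 of the 8 smooth muscle and pericyte markers were positive (median 0.20), and edgeR called 1 higher. In the vehicle mice all 8 were positive (median 0.57), and edgeR called 0. Over all genes edgeR called 2.83% and 0.0376% higher in these arms. Endothelial markers had 9 of 10 positive in each arm. Col4a1 and Col4a2, the basement membrane collagens, were at 0.64 and 0.63 (edgeR adjusted p = 0.107 for each). These 2 genes overlap at their ends, and they were picked after their values were seen.

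The other marker lists did not separate the genotypes. Fibroblast markers had a median of -0.18, macrophage and leukocyte markers 0.05, satellite cell markers 0.02, adipocyte markers 0.04, Schwann cell and nerve markers 0.08, red blood cell genes -0.76 over 3 genes and tendon markers -0.63 over 5 genes. In each of these lists edgeR and DESeq2 called 0 genes and at most 2 had an unadjusted p under 0.05, and the summed levels of the 2 genotypes overlapped. Adipocyte sums ran from 1265 to 1933 CPM in Hsf1-/- and from 878 to 2141 CPM in wild type mice.

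**Figure D5:**
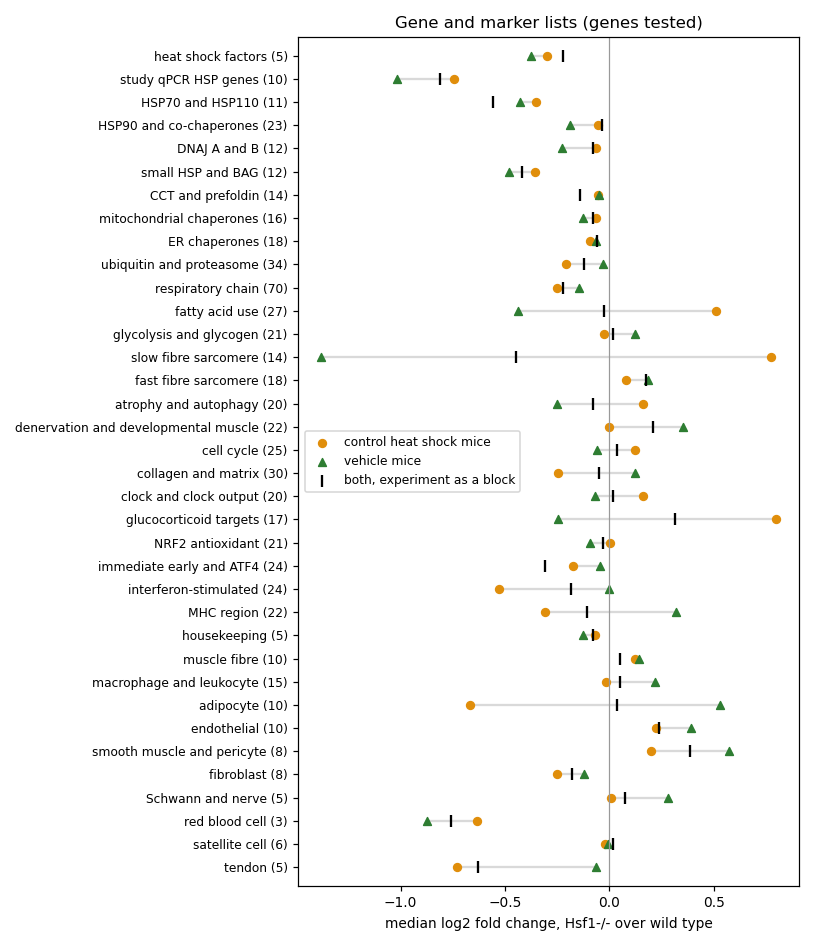
Median log2 fold change of Hsf1-/- over wild type for each gene list and cell marker list (number of genes tested in brackets) in the control heat shock mice (orange circles), the vehicle mice (green triangles) and both together (black bars). The list of HSP genes followed by qPCR lies at -0.81, with both arms below 0, while the slow fibre list lies at 0.77 in one arm and -1.38 in the other.

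In the remaining lists edgeR called 0 genes with both arms together, at most 6 genes of a list had an unadjusted p under 0.05, and DESeq2 called at most 2. The denervation and developmental muscle list had 20 of 22 genes with a positive fold change (median 0.21), with 11 positive in the control heat shock mice and 18 in the vehicle mice (medians -0.001 and 0.35). Of the 22, 2 were higher at an unadjusted p under 0.05, where all genes had 6.29%. The growth factor gene Igf2 (1.06, edgeR adjusted p = 0.166) was among the 2. Ubiquitin and proteasome genes had 30 of 34 with a negative fold change (median -0.12) and 4 lower at an unadjusted p under 0.05. All genes had 6559 of 13284 negative and 6.42% lower at that p. In the control heat shock mice 26 of the 34 were negative (median -0.21) and 2 were called lower. In the vehicle mice 22 were negative (median -0.03) and 0 were called. Over all genes 1.69% and 0.226% were called lower in these arms. Interferon-stimulated genes had 19 of 24 with a negative fold change (median -0.18), with arm medians of -0.53 in the control heat shock mice and -0.003 in the vehicle mice. Genes of the MHC region had a median of -0.31 in the control heat shock mice and 0.32 in the vehicle mice. Glucocorticoid targets had a median of 0.80 in the control heat shock mice and -0.25 in the vehicle mice. Medians were -0.31 for immediate early and ATF4 genes, -0.08 for atrophy and autophagy, -0.05 for collagen and matrix, -0.03 for NRF2 targets, 0.02 for clock genes and for glycolysis and glycogen, 0.04 for the cell cycle and -0.08 for housekeeping genes.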

How the data were processed

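Strand-specific paired-end libraries of polyA RNA were sequenced by the authors and mapped to mm9 with Bowtie, and the deposited values are raw counts per gene, with the counting program and annotation not given in the sources used here. Genes with 2 or more counts in at least 10 of the 24 libraries were kept, as in the study, and genes on X and Y were left out. Hsf1-/- was compared with wild type by edgeR 4.0.16 (TMM, quasi-likelihood) with experiment as a block, by 4-group fits within each arm and for their difference, and by DESeq2 1.42.0 as an alternative. SE is the fold change over the root of F. Near copies were sought with minimap2 2.31 in NCBIM37 (at least 0.5 of a transcript, divergence up to 0.02). Total counts of 23883708 to 29939582 set the counting precision. Fits were tested on simulated data.

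The named genes were the heat shock factors, the HSP genes of the study's qPCR, the 12 largest rises and 12 largest falls that separated the groups, up to 5 called genes of each list and up to 8 called genes within 10 Mb of Hsf1. Members and lists were chosen with earlier results of these data known. Replicates are separate mice.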

Additional observations from a re-analysis of the deposited data

Results flagged for a closer look

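The genotype difference itself differed between the control heat shock and the vehicle mice for 257 genes, by edgeR's test of the difference, and 224 of these had the higher value in the control heat shock mice. Among them were 8 of the 14 slow fibre sarcomere genes.

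The 4 Y-linked genes, which were left out of the genes tested, summed to at least 4864 counts in the Hsf1-/- control heat shock mice and to 0 in the wild type control heat shock mice.

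Of 54 groups of 4 mice of 1 genotype, checked gene by gene over the named and called genes, 1 held a mouse far from the other 3. It was Ahsa1, with 84.6 CPM in the second Hsf1-/- vehicle mouse against 76.3 to 77.4 CPM in the others. Chance gives about 1 in 20 such groups. Other genes in the text were not checked. Among these was Hspa8, with 132.6 CPM in the first Hsf1-/- vehicle mouse against 19.3 to 21.1 CPM in the others.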

How the results depend on the processing

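Against the 16 genes called in both arms together, DESeq2 called 310, all 24 libraries 122, the Y-linked level as a covariate 34 (9 of the 16 among them) and the replicate number as a block 4 (1 higher, 3 lower, 3 shared with the 16). Replicate numbers were taken only to name the mice. Same-numbered mice deviated together with correlations of 0.02 and 0.11. With 2 mice a group the deviations mirror each other, so these values cannot settle whether the numbers mark pairs. Leaving out the 2 wild type mice with 0 Y-linked counts, an alternative chosen after seeing the data, called 17, with 6 of the 16 among them. Single mice left out gave 8 to 26 genes, with 8 without the second wild type vehicle mouse, the first Hsf1-/- vehicle mouse or the first Hsf1-/- control heat shock mouse and 26 without the second Hsf1-/- control heat shock mouse. In the control heat shock mice the 600 genes became 1104 by DESeq2, 249 with all 24 libraries and 8 to 707 with single mice left out. In the vehicle mice the 35 became 311 by DESeq2, 13 with all 24 libraries, 53 with library size only, 116 with no filter and 18 to 34 with single mice left out. The 257 for the difference became 0 with all 24 libraries, 145 with library size only and 10 to 135 with single mice left out. Where an arm kept 1 mouse, it was assumed to vary like the other groups. For genes, the sign turned for 2 genes that were not called: Hsbp1 was 0.0652 with the Y-linked covariate, and Hsf5 was 0.13 with no experiment block, 0.10 with the replicate block, 0.64 without the 2 wild type mice and -0.83 to 0.65 with single mice left out. Of the list medians, 9 values under other settings and 2 with single mice left out moved by more than the spread between mice, while 173 and 110 did not. With the Y-linked covariate and without the 2 wild type mice, in that order, the medians became -0.18 and -0.13 for HSP90 and co-chaperones, -0.22 and -0.23 for DNAJ, -0.05 and -0.04 for CCT and -0.15 and -0.16 for the respiratory chain. CCT also became -0.19 with library size only and lay between -0.136 and -0.085 with single mice left out. Why these values moved was not tested.

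Each arm has 2 mice of a genotype, and the spread rests on 5 residual degrees of freedom, or 4 in the fits of 1 arm. Hsf1-/- mice were 8 or 10 weeks old and wild type mice 12. Counts per gene cannot tell reads of near-identical copies apart, and strand use in counting is not given in the sources used here. Genes that overlap others may thus share reads with them. Among these genes are Ahsa2, Asb15, Dysf, Myoc, Hspa1a, Hspb6, Unc45b, Jrk, Tcp1, Myh1 and Myh7.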
